A study of Mus musculus with 107 samples.

Results

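The genes described here encode the subunits of heterotrimeric G proteins and the RGS proteins (regulators of G protein signalling), measured in ribosome-bound RNA from mouse brain and spinal cord, in 24 cell populations. Members were all genes whose array symbol reads Rgs, Gna, Gnb or Gng followed by a subunit or family designation. This gave 51 genes of the 18193 on the array: 16 Gna (alpha), 5 Gnb (beta), 11 Gng (gamma) and 19 Rgs genes. The rule used names only, no measured value. It also took in Gnasas1, an antisense RNA of the Gnas locus that encodes no subunit. Of 121 probe sets that carry 1 member symbol, each gene was represented by the one with the highest mean log2 value over all arrays. Gng5 was left out by the rule, because its probe sets also carry the symbol of a pseudogene.

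A G protein-coupled receptor activates a G protein by making the alpha subunit exchange GDP for GTP, after which alpha and the beta-gamma dimer act on separate targets. Gs and Golf alpha stimulate adenylyl cyclase, Gi, Go and Gz inhibit it, and Gq and G11 activate phospholipase C beta. Beta-gamma dimers open GIRK potassium channels and inhibit calcium channels. RGS proteins speed up GTP hydrolysis by alpha subunits and so end the signal. The R7 group (Rgs6, Rgs7, Rgs9, Rgs11) binds Gnb5 in place of a gamma subunit, and Rgs9 in striatum is known for its part in dopamine and opioid signalling.

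The method, translating ribosome affinity purification (TRAP), uses mice with a bacterial artificial chromosome (BAC) transgene in which a gene typical of the cells, the driver, lends its regulatory DNA to express a tagged ribosomal protein. RNA on the tagged ribosomes is recovered from dissected tissue, and RNA that stays behind (unbound) serves as the tissue control. The 17 neuronal populations were, in cortex, Cort+ (driver cort, line GM130), Pnoc+ (pnoc, GM64), Cck+ (cck, GM391), layer 5a (etv1, TS88), layer 5b (glt25d2, DU9) and layer 6 neurons (ntsr1, TS16). In cerebellum they were Purkinje (pcp2, DR166 and DR168), granule (neurod1, JP241), Golgi (grm2, JP77), unipolar brush (grp, JP25) and stellate and basket neurons (lypd6, JP48). In striatum they were Drd1+ (drd1, CP73) and Drd2+ medium spiny neurons (drd2, CP101), and cholinergic neurons of striatum, basal forebrain and spinal cord and brainstem motor neurons came from 1 chat line (DW167). The 7 glial populations were astrocytes (aldh1l1; JD130 in cerebellum, with JD133 added in cortex), mature oligodendrocytes (cmtm5, JD307) and mixed oligodendroglia (olig2, JD97) of cortex and cerebellum, and Bergmann glia (septin4, DS152). Each population had 3 arrays, except cortical astrocytes with 4 and Purkinje neurons with 6. Unbound RNA was measured on 9 cortical, 7 cerebellar and 6 striatal arrays and on 3 each from basal forebrain, brainstem and spinal cord. The series text calls the replicates independent preparations. Age, sex, strain and the number of animals per preparation are not given in the sources used here, all mice carried a transgene, and outside Purkinje neurons and cortical astrocytes each population came from 1 line, so line and population cannot be told apart.

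A level here is log2 of the deposited array intensity after each group was shifted by 1 constant, between -0.58 and 1.29, that equalizes the spiked biotinylated controls. The largest shifts were those of Drd1+ (1.29) and Drd2+ medium spiny neurons (0.91), so close ranks of these populations depend on the scaling. Levels of 1 gene are compared between groups, never between genes, since probe sets differ in brightness. A gene was tested where a group mean reached 6 (an intensity of 64). It was called where limma's Benjamini-Hochberg adjusted p was under 0.05 and the change at least 2-fold in the same direction, both with this scaling and after quantile normalization of all arrays. Calls between populations also required the higher side to exceed its own unbound tissue. Where a side averages several populations, its SD pools the spread inside each of them, and p-values do not cover the spread between the populations averaged. Folds are written "at least" where means under 6 on the lower side were replaced by 6. In groups of 3 arrays the authors' normalization left 11.01% of the genes at 6 or above with equal values on all arrays, against 0.08% in larger groups, so some triplicate SDs are 0 and triplicate spread is understated. Among the members, 69 of 1025 gene and group pairs at 6 or above were of this kind. Of the cell-type markers, all 7 medium spiny neuron markers reached 6 in both medium spiny populations, all 5 Purkinje markers in Purkinje neurons, 3 of 4 cholinergic markers in each of the 4 chat populations, and all 9 myelin markers in the 4 oligodendroglial ones. All 9 myelin markers also reached 6 in Bergmann glia and in Cort+, medium spiny, layer 5a, brainstem motor and stellate and basket neurons. Their summed intensity was 87400 to 93700 in Bergmann glia and 122000 to 182000 in the oligodendroglial populations. Fewer cells of a type and less RNA per cell cannot be told apart in such samples.

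Of the 51 members, 43 reached 6 in at least 1 population and 18 in all 24. The 8 that stayed under 6 everywhere were Gnat1, Gnat2, Gngt1 and Gngt2, which encode the transducin subunits of photoreceptors, Gnb3, which pairs with cone transducin, Gna15, Rgs1, a gene of lymphocytes, and the antisense RNA Gnasas1. The highest of them was Gngt1, at 4.65 in stellate and basket neurons. The members present everywhere included Gng4, the alpha subunits Gnas, Gnao1, Gnai1, Gnai2, Gnai3, Gnaq, Gna11, Gna13 and Gnaz and the beta subunits Gnb1, Gnb2 and Gnb5. The population means of Gnb1 still spanned 2.41 log2 units, those of Gnb2 7.8 and those of Gng4 8.06. The widest spans belonged to Rgs4 (12.4), Rgs8 (12.09), Rgs20 (10.76), Gng11 (10.62), Gng13 (10.57), Rgs9 (10.24) and Rgs5 (10.17).

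**Figure D1:**
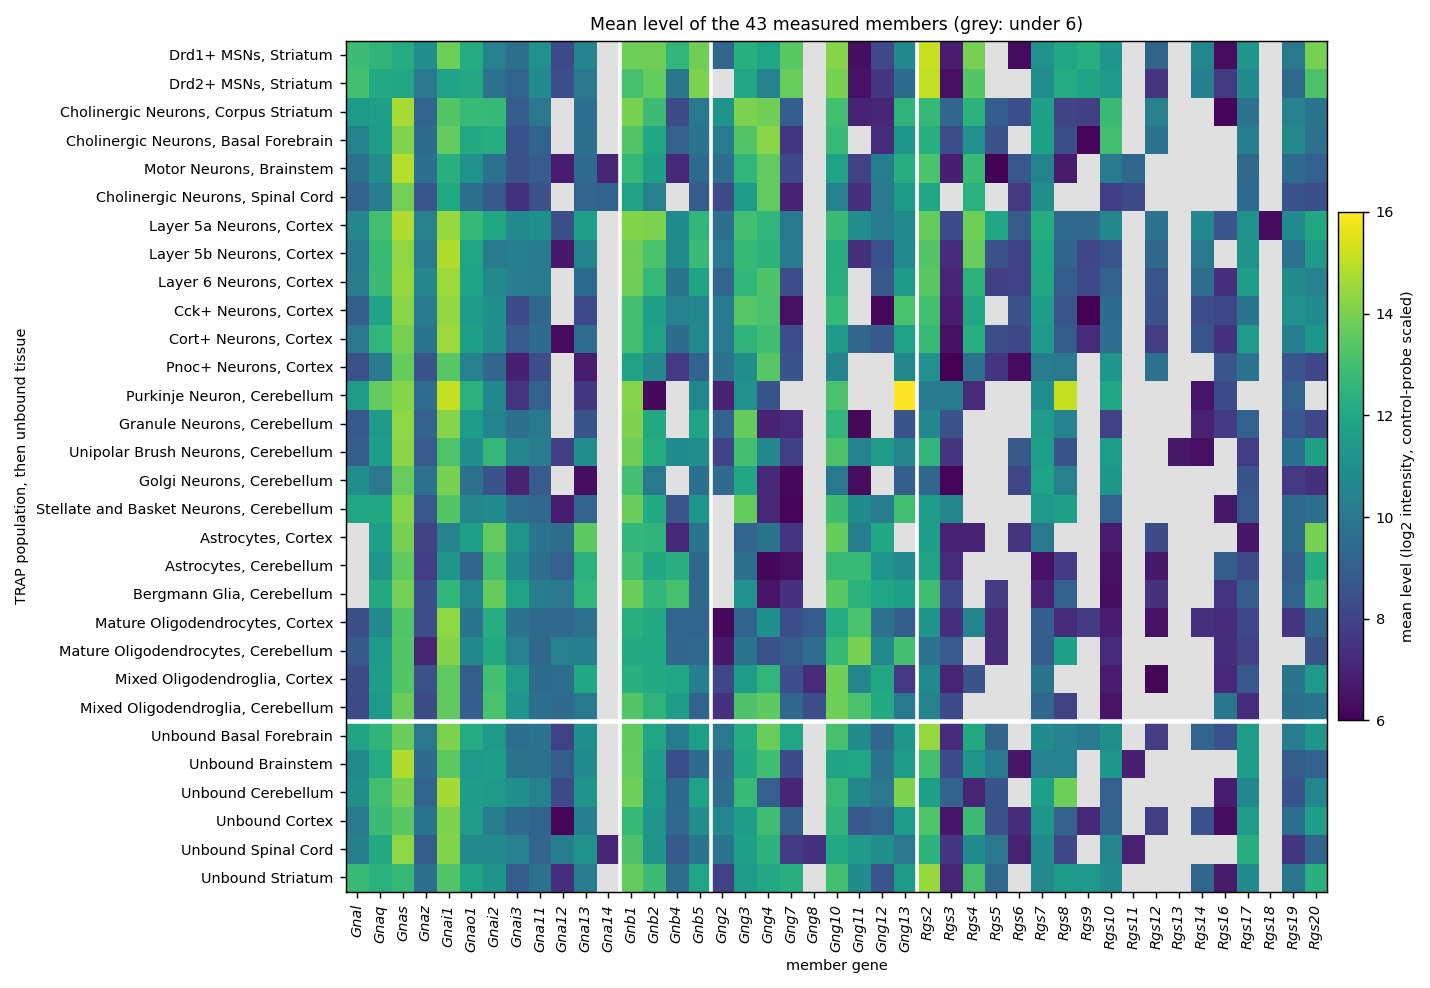
Levels (log2 intensity after control-probe scaling, colour) of the 43 members that reached 6 in a population, in the 24 TRAP populations and 6 unbound tissues, with means under 6 in grey. Rgs9 and Gng7 are brightest in the 2 medium spiny populations, Rgs8 and Gng13 in Purkinje neurons, Gng8 is over 6 only in the 4 oligodendroglial populations and unbound spinal cord, and Gna14 and Rgs11 in brainstem motor and spinal cholinergic neurons and unbound hindbrain or cord.

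Among the alpha subunits, Gnas (Gs) was highest in brainstem motor neurons at 14.87 and lowest in Drd2+ medium spiny neurons at 11.94. Gnal encodes Golf, the cyclase-stimulating subunit of striatum and olfactory neurons. It was highest in Drd2+ and Drd1+ medium spiny neurons, at 13.03 and 12.89, followed by stellate and basket neurons at 11.88, and lowest in Bergmann glia at 4.98. Gnao1, the abundant neuronal Go subunit, was highest in striatal cholinergic neurons (12.79) and lowest in cerebellar mixed oligodendroglia (9.0). Gnaq peaked in Purkinje neurons at 13.6 and was lowest in Golgi neurons at 9.95, whereas Gna11, its close relative, spanned 2.62 log2 units and was called against unbound RNA in none of the 24 populations, with differences from -1.53 to 1.8. Gna13 (12.38 to 13.53 in the 3 astrocyte-type populations) and Gna12 were highest in glia. Gnaz, the pertussis toxin-insensitive relative of Gi, was highest in Drd1+ medium spiny neurons at 10.96. Layer 6 neurons came next at 10.62, a gap smaller than the Drd1+ shift of 1.29.

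The beta subunits differed most in Gnb4 and Gnb2. Gnb4 was highest in Bergmann glia (13.09), Drd1+ medium spiny neurons (12.57) and cerebellar astrocytes (12.35) and lowest in Purkinje neurons (3.45). Gnb2 was highest in layer 5a neurons (14.03) and lowest in Purkinje neurons (6.24). Gnb5, the partner of the R7 RGS proteins, was highest in the Drd2+ and Drd1+ medium spiny populations (14.01 and 13.84) and lowest in spinal cholinergic neurons (8.91). Among the gamma subunits, Gng3 (9.22 to 14.03) was highest in striatal cholinergic neurons, as was Gng2 (11.17), and Gng4 was highest in basal forebrain cholinergic neurons (14.24). Gng11 and Gng12 were highest in oligodendroglia, at 13.99 in cerebellar mature oligodendrocytes and at 12.11 in cerebellar mixed oligodendroglia.

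Medium spiny neurons, the projection neurons of striatum, were compared with the other 15 neuronal populations. The levels of 13 of 41 members tested were called higher, where the background share called higher was 17.3% of all genes tested, and 2 were called lower against a background of 4.16%. The median difference was 0.72 over the members and 0.55 over all genes. The genes called higher covered the partners Rgs9 and Gnb5, the gamma subunit Gng7 that is known to pair with Golf, Gnb4, Gnb2 and Gng10, the RGS genes Rgs2, Rgs4, Rgs8, Rgs12, Rgs14 and Rgs20, and Gna12. Gnas and Rgs6 were called lower. Without the scaling between groups the counts were 6 higher and 7 lower. Rgs2, Rgs4, Rgs8, Rgs9, Gna12, Gnb2 and Gng10 were then no longer called. Their unscaled log2 differences were 1.88, 3.05, 1.76, 5.19, 2.04, 1.03 and 0.81 in that order, of which Gng10 alone was under 2-fold. A call also required the medium spiny mean to exceed unbound striatum. With the mean of a gene's probe sets, Rgs4, Rgs6, Rgs9, Rgs12, Rgs20, Gna12 and Gnas lost their call.

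Rgs9 stood at 12.19, 12.45 and 12.24 on the Drd1+ arrays and at 11.79, 11.58 and 12.12 on the Drd2+ arrays. All 6 arrays were above every array of the other neuronal populations, of which layer 5a neurons were highest at 9.44 ± 0.26 (SD, n = 3) and striatal cholinergic neurons reached 7.91 ± 0.16. Rgs9 averaged 12.06 ± 0.21 (SD, n = 6) in medium spiny neurons and 5.73 ± 0.1 (SD, n = 48) in the others, a difference of at least 40.1-fold (limma, adjusted p = 1.6e-65) and 5.78 log2 units above the median gene. The difference was 5.19 without scaling and 2.92 with the mean of the Rgs9 probe sets, of which the others were dim, and Rgs9 was called in neither setting. Gng7 stood at 13.34, 13.81 and 13.19 in Drd1+ and at 13.75, 13.53 and 13.7 in Drd2+ neurons, again above every array of the other neurons. Gng7 averaged 13.55 ± 0.24 against 7.67 ± 0.3, at least 53.5-fold (adjusted p = 2.4e-53). Layer 5b and layer 5a neurons came next with 10.13 ± 0.06 and 10.03 ± 0.13 (SD, n = 3 each), which differ by less than their spread, and Purkinje neurons were lowest at 3.89.

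**Figure D2:**
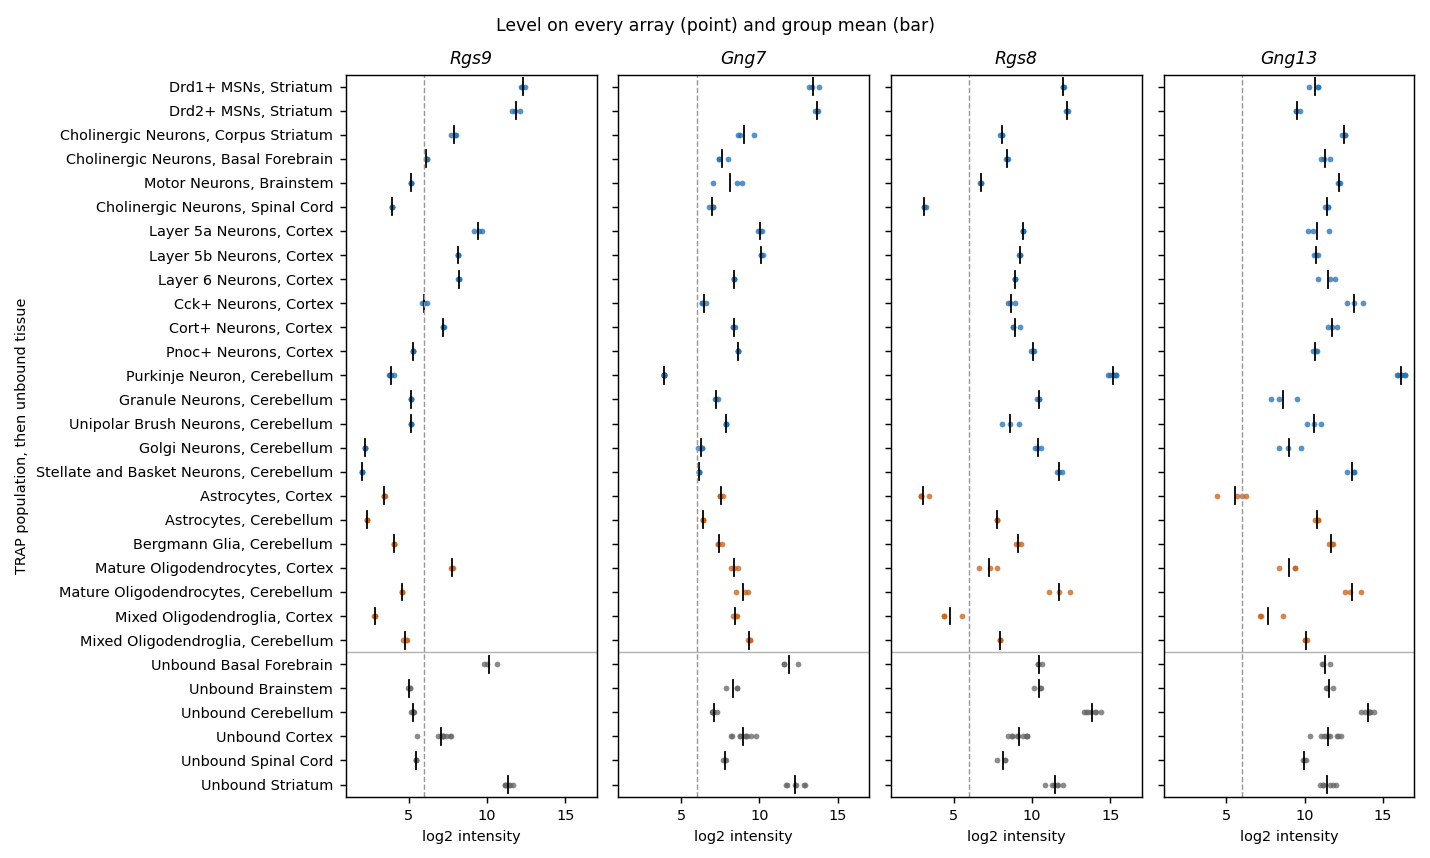
Levels of Rgs9, Gng7, Rgs8 and Gng13 on each array (points, log2 intensity after control-probe scaling) by TRAP population and unbound tissue. Medium spiny arrays are the highest for Rgs9 and Gng7, at 11.58 or above for Rgs9, and Purkinje arrays are the highest for Rgs8 and Gng13, at 14.82 or above for Rgs8.

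Gnb5 was 9.49-fold higher in medium spiny neurons, at 13.93 ± 0.17 against 10.68 ± 0.31 (adjusted p = 2.6e-34). Rgs2, a regulator of Gq, was 8.18-fold higher at 15.13 ± 0.25 against 12.1 ± 0.18 (adjusted p = 4.3e-28). Neither gene's medium spiny arrays overlapped with those of other neurons. Rgs20, of the RZ group that acts on Gz and Gi, was at least 15.7-fold higher and did not overlap either. Rgs4 (at least 10.6-fold), Rgs14 (at least 9.03-fold) and Rgs8 (at least 6.56-fold) were called higher but overlapped, Rgs4 and Rgs14 with cortical layer neurons (layer 5a arrays at 13.67 to 13.96 for Rgs4 and at 10.56 to 10.74 for Rgs14) and Rgs8 with Purkinje neurons. Rgs4 and Rgs14 are regulators of Gi and Gq and of Gi signalling. Gnb4 (at least 6.9-fold) was higher on average, but its level differed between the Drd1+ and Drd2+ populations.

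Gnas and Gnal encode the stimulatory alpha subunits, and by the brightest probe set of each Gnas was lower and Gnal higher in medium spiny neurons. Gnas stood at 12.23, 12.38 and 12.01 in Drd1+ and at 11.82, 11.89 and 12.12 in Drd2+ neurons, below every array of the other neurons. It averaged 12.07 ± 0.17 (SD, n = 6) against 14.24 ± 0.14 (SD, n = 48), 4.49-fold lower (adjusted p = 3.4e-23). With the mean of all 5 Gnas probe sets in place of the brightest one, the difference turned to 0.13, and the other Gnas probe sets correlated with it at r between -0.32 and 0.3 over the 30 groups. Those other probe sets were dim, with highest group means of 7.55, 6.17, 3.67 and 3.53, so their mean says little about the brightest one. The Gnas locus also makes transcripts from other start sites and an antisense RNA, and the probe sets were not assigned to them here. Gnal averaged 12.96 ± 0.16 in medium spiny neurons and 10.08 ± 0.23 in the others, 7.4-fold apart with no overlap of arrays (adjusted p = 3.2e-35). It was not called, because its level in medium spiny TRAP RNA did not exceed that of unbound striatum under both scalings (0.2 above with control scaling, -0.04 with quantile normalization).

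Promoters of 4 of the members called higher in medium spiny neurons are shown because these genes had large differences there. Each runs 5′ to 3′ from 250 bases before to 50 bases after the annotated start of the transcript farthest upstream, from RefSeq on GRCm38.p6, all on the minus strand: Rgs9 chr11:109298132-109298431, Gng7 chr10:81014876-81015175, Rgs4 chr1:169747593-169747892 and Rgs2 chr1:144004100-144004399. Capitals mark matches on either strand to 4 motifs: the TATA box TATAAA, the CCAAT box, the GC box GGGCGG and the core of the cyclic AMP response element, TGACG.
Rgs9: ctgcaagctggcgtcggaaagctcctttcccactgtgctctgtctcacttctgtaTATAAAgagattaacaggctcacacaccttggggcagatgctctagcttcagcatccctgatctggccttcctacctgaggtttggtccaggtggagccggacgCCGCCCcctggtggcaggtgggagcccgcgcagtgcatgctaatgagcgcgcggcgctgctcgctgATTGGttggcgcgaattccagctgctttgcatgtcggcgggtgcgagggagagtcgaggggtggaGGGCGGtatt
Gng7: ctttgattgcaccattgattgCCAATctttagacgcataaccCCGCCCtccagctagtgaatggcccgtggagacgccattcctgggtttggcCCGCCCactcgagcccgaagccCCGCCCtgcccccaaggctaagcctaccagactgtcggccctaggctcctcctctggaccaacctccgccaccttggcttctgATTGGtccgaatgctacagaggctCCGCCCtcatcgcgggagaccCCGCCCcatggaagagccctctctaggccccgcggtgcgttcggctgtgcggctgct
Rgs4: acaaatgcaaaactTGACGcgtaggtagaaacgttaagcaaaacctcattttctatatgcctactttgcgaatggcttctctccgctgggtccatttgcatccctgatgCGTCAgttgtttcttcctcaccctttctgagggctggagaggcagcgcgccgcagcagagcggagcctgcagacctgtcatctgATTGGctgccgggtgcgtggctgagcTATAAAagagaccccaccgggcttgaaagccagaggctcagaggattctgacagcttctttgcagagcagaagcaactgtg
Rgs2: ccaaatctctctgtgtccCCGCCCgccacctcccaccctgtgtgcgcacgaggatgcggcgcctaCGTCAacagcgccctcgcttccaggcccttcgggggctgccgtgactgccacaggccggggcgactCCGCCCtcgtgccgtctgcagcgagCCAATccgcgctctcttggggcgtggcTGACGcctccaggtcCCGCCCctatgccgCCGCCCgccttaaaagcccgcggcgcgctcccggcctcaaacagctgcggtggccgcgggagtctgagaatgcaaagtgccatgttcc

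A TATAAA match began at -31 from the Rgs4 start and at -195 from the Rgs9 start, and neither Gng7 nor Rgs2 held one in the window, a motif present in 13.6% of the 32851 promoters in the table. All 4 windows held a CCAAT match, as 37.4% of all promoters did. Gng7 held 5 GC boxes and Rgs2 held 4, and 35.7% of promoters held at least 1. Rgs4 and Rgs2 held 2 matches to TGACG each, found in 20.8% of promoters, and Rgs9 and Gng7 held none in these bases. A match describes the letters only. RefSeq promoters were matched for 37 of the 51 members.

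Other genes of the pathway were counted in the same comparison, from lists chosen with earlier results of these data known. Of 8 adenylyl cyclases tested, 3 were called higher in medium spiny neurons and 1 lower, with Adcy5, the main striatal cyclase, at 14.07 against 9.35 (limma, adjusted p = 1.8e-56). Of 13 tested R7 anchors and other G protein regulators, 5 were called higher (Gprin3, Rap1gap, Rasd2, Rgs7bp and Ric8b) and none lower. Rgs7bp, which anchors R7 RGS proteins at the membrane, was at 14.09 against 12.59. Ric8b, a chaperone of Gs and Golf alpha, was at 11.85 against 8.13, and Rasd2, a striatal small GTPase also known as Rhes, at 14.6 against 9.27. Of 4 phospholipase C beta genes tested, Plcb1 was called higher (13.69 against 10.73), and Plcb2 was called lower with both means under 6.

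Drd1+ and Drd2+ medium spiny neurons, the neurons of the direct and indirect striatal pathways, differed in 5 of 36 members tested. Gng2, Gnb4, Gnai1 and Rgs12 were called higher in Drd1+ neurons (background 1.81% of genes) and Rgs16 lower (background 0.703%). Gng2, a common brain gamma subunit, stood at 9.62, 9.01 and 9.4 in Drd1+ and at 5.84, 5.92 and 5.84 in Drd2+ neurons, at least 10.1-fold (limma, adjusted p = 5.1e-11). The beta subunit Gnb4 stood at 12.56, 12.58 and 12.58 against 9.91, 9.96 and 9.94, 6.2-fold (adjusted p = 3.3e-15). The groups did not overlap in either gene. Gnai1, a cyclase-inhibiting alpha subunit, was 3.93-fold higher (13.79 ± 0.04 against 11.81 ± 0.0, SD, n = 3 each). Rgs12 was 3.05-fold higher, at 9.17 ± 0.07 against 7.56 ± 0.32 (adjusted p = 3.5e-04), and with the replicate number as a block it was no longer called. Rgs16, of the R4 group, was 2.59-fold lower (6.33 ± 0.23 against 7.7 ± 0.06, adjusted p = 0.02). That call ended without any 1 of 4 arrays (Drd1+ replicates 2 and 3, Drd2+ replicates 1 and 2) and at a minimum level of 8. After averaging a gene's probe sets, 1 of the 5 calls remained, Gnb4, and Gnai1 was not called without scaling (1.6). The median difference was 0.43 over the members and 0.34 over all genes, and leaving out the first Drd2+ array left 3 members called, without Rgs12 and Rgs16. Rgs9 (12.29 and 11.83) and Gng7 (13.44 and 13.66) were not called different between these populations.

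Striatal cholinergic interneurons share their tissue with medium spiny neurons, and 21 of 38 members tested differed between them, 10 higher (background 18.3%) and 11 lower (background 21.1%). The median difference was -0.64 over the members and -0.53 over all genes. Lower in cholinergic neurons were Rgs14 (at least 21.9-fold, 5.73 against 10.45), Gng7 (23.6-fold), Rgs9 (17.7-fold), Rgs8 (16.3-fold), Gnb5 (15-fold), Rgs20 (13.3-fold), Gnb4 (7.83-fold) and Rgs2 (5.35-fold). Higher were Gng2 (at least 11.3-fold, 11.17 ± 0.08 against 7.6 ± 0.22), Rgs6 (at least 4.8-fold), Gng4 and Rgs3 (6.45-fold each), Gnai2 (6.35-fold), Gnas (6.08-fold, 14.68 ± 0.14 against 12.07 ± 0.17), Gng13 (5.32-fold) and Rgs12 (4.02-fold). Each adjusted p by limma was 1.6e-08 or lower, and no arrays of the groups overlapped in these genes. Medium spiny markers summed to intensities of 13200 to 15100 in the cholinergic arrays and 106000 to 129000 in the medium spiny arrays. The part of medium spiny RNA in the cholinergic values was not tested. Without scaling between groups the counts were 14 higher and 5 lower. Rgs2, Rgs4, Rgs8, Rgs9, Gna12 and Gng10 were not called then, with log2 differences of -1.65, -0.41, -3.26, -3.38, -1.8 and -0.32 in that order. Averaged over all probe sets of a gene, the log2 difference was 0.17 for Gnas, 0.14 for Rgs12, 0.67 for Rgs3, 0.81 for Gng13, -1.35 for Rgs20 and -1.91 for Rgs9, none of them called, nor were Rgs4 and Gna12.

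Cholinergic neurons of brainstem and spinal cord, which include motor neurons, were compared with those of striatum and basal forebrain, all from the same chat line. Gna14, Rgs11 and Rgs6 were called higher (3 of 39 tested, background 7.04%) and 9 members lower (background 9.55%), with median differences of -1.02 over the members and -0.28 over all genes. Gna14, a Gq-class alpha subunit of restricted expression, stood at 9.49, 9.06 and 8.8 in spinal cholinergic neurons and at 5.93, 7.49 and 7.86 in brainstem motor neurons. No other population reached 6, and Gna14 was at 2.21 in basal forebrain and 2.56 in striatal cholinergic neurons, which gives at least 4.3-fold (adjusted p = 1.9e-62). Rgs11, an R7 protein best known from retina, stood at 9.25, 9.43 and 9.4 in brainstem motor neurons and at 8.15, 8.02 and 8.61 in the spinal group, at least 7.02-fold above the forebrain groups (adjusted p = 1.8e-43). Rgs11 reached 6 in no other population, and striatal cholinergic neurons came closest at 5.4. Unbound spinal cord held 7.06 for Gna14 and 6.93 for Rgs11, and TRAP RNA exceeded unbound RNA of the same tissue for both genes in both populations, by 4.16-fold and at least 2.13-fold for Gna14 and by 2.51-fold and 5.53-fold for Rgs11 in cord and brainstem. Rgs12 was at 2.69 ± 0.13 in the hindbrain and cord groups against 10.09 ± 0.25 in the forebrain groups, at least 17-fold lower (adjusted p = 2.7e-42). Rgs10 (15.2-fold), Gnai2 (8.98-fold), Rgs3 (at least 5.42-fold), Gnao1 (4.15-fold), Gng2 (3.36-fold), Gng3 (3.04-fold), Rgs19 (2.92-fold) and Gnb2 (2.62-fold) were lower as well. Gnb2 was not called without scaling, nor without any 1 of 4 arrays (basal forebrain replicate 3, striatal replicate 3, spinal replicate 2, brainstem replicate 1). With the mean of a gene's probe sets Rgs12 (-2.36), Rgs3 (-1.09) and Gnao1 (-0.62) were not called.

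**Figure D3:**
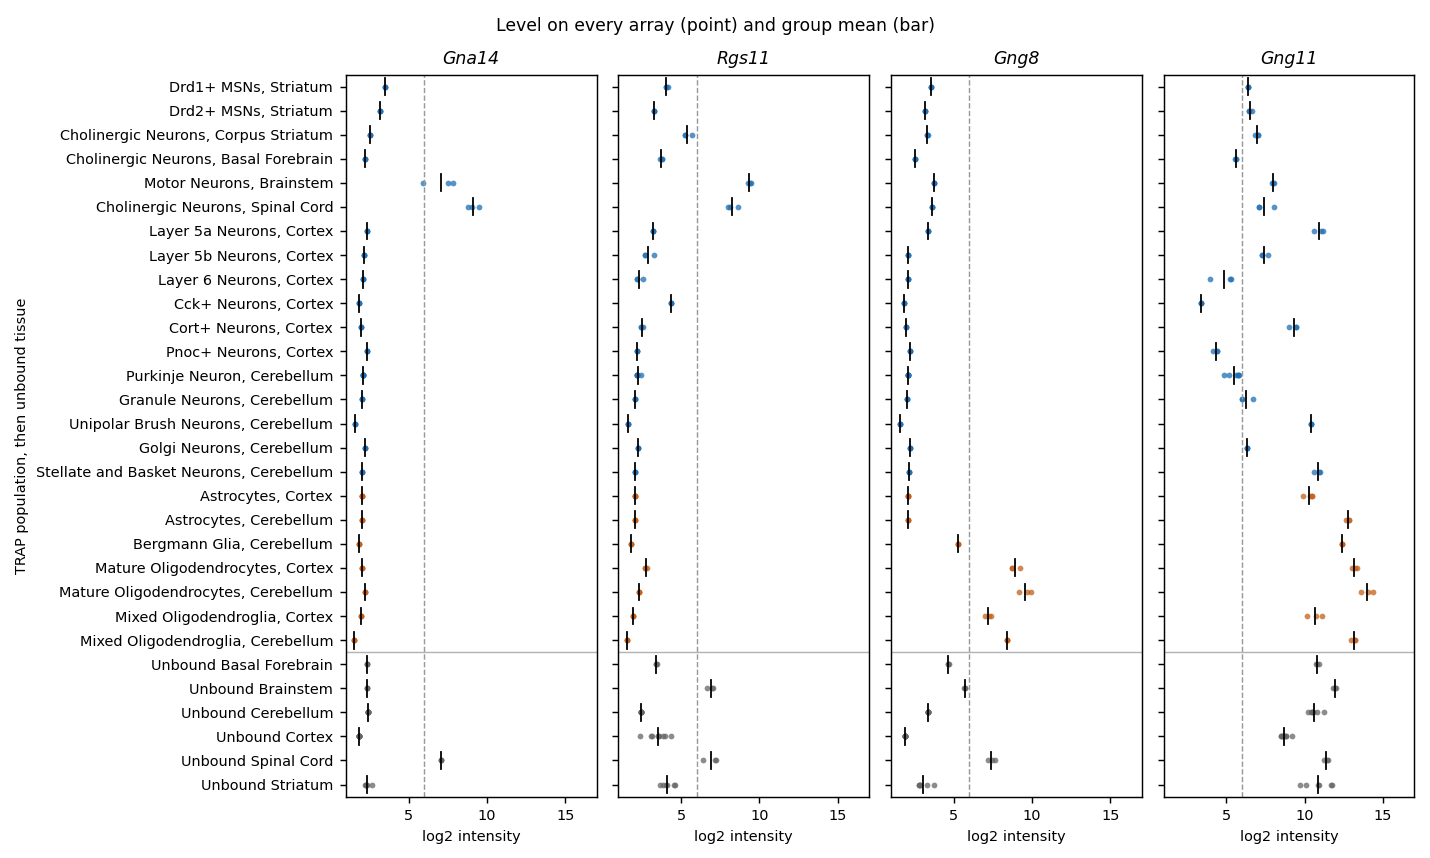
Levels of Gna14, Rgs11, Gng8 and Gng11 on each array (points, log2 intensity after control-probe scaling) by TRAP population and unbound tissue. Gna14 and Rgs11 reach 6 in the brainstem motor and spinal cholinergic populations alone among TRAP groups, with 1 brainstem array of Gna14 at 5.93, and Gng8 in the 4 oligodendroglial populations alone.

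In Purkinje neurons, the output neurons of the cerebellar cortex, 10 of 36 members tested were called higher than in the other 4 cerebellar neuron populations (background 13.2%) and 4 lower (background 3.77%). Median differences were -0.14 over the members and -0.06 over all genes. Higher were Gng13, Rgs8, Gnaq and further alpha subunits (Gnao1, Gnai1, Gnal) and RGS genes (Rgs3, Rgs4, Rgs10, Rgs16). Gnb2, Gng3, Rgs6 and Rgs13 were lower. After averaging a gene's probe sets, Rgs3, Rgs4, Rgs6, Rgs16, Gnao1 and Gnal lost their call, and Gnai1 did without any 1 of 3 arrays (granule replicate 3, stellate and basket replicate 2, unipolar brush replicate 2).

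Gng13, a gamma subunit first known from taste and retinal cells, stood between 15.88 and 16.38 on the 6 Purkinje arrays, above every other array of the series. Its mean was 16.14 ± 0.21 (SD, n = 6) against 10.3 ± 0.61 (SD, n = 12), 57.5-fold higher (limma, adjusted p = 2.1e-39). The next populations were Cck+ cortical neurons at 13.17 ± 0.52 and cerebellar mature oligodendrocytes at 13.02, and unbound cerebellum held 14.06 ± 0.27 (SD, n = 7). Rgs8, an R4 regulator of Gi and Go, stood between 14.82 and 15.35 on the Purkinje arrays, above every other array. Its mean was 15.14 ± 0.21 against 10.28 ± 0.31, 29-fold higher (adjusted p = 2.4e-44). Purkinje TRAP RNA exceeded unbound cerebellum 4.23-fold for Gng13 and 2.54-fold for Rgs8. Rgs8 was called lower than unbound RNA in 15 populations and higher in Purkinje neurons alone. Both genes were also high in RNA of cerebellar mature oligodendrocytes (12.91, 13.59 and 12.57 for Gng13; 11.73, 12.43 and 11.07 for Rgs8), and their cortical counterparts held 8.33 to 9.37 and 6.64 to 7.79. Beside this, the 5 Purkinje markers all reached 6 in every cerebellar population, and their summed intensity was 297000 to 406000 in Purkinje arrays, 120000 to 208000 in unbound cerebellum, 48500 to 95100 in cerebellar mature oligodendrocytes, 78300 to 91700 in stellate and basket neurons and 5080 to 24500 in the other cerebellar populations. Sums of this size were not limited to cerebellum. Among TRAP populations outside it they ran from 5950 to 10100 in cortical astrocytes (3 of 5 markers at 6 or above) up to 76800 to 84800 in Drd1+ medium spiny neurons (2 of 5). The part of Purkinje RNA in the cerebellar values was not tested.

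Gnaq, which couples metabotropic glutamate receptors to phospholipase C in Purkinje neurons, was 5.16-fold higher at 13.6 ± 0.27 against 11.23 ± 0.14 (adjusted p = 5.1e-26). Gnb2 stood between 6.06 and 6.68 on the Purkinje arrays, where no other array of the series was under 9.96, and was 41.5-fold lower than in the other cerebellar neurons (6.24 ± 0.23 against 11.61 ± 0.18, adjusted p = 1.6e-46). Gnb1, like Gnb5 also present in all populations, was at 14.18 in Purkinje, 14.14 in layer 5a and 14.08 in granule neurons. It was not called between Purkinje and the other cerebellar neurons. Rgs4 was at 7.18 ± 0.21 in Purkinje neurons and under 6 on average in the other cerebellar neurons (3.03 ± 0.3). Of the pathway lists, 3 of 12 tested regulators were called higher (Pcp2, Pdcl and Rgs7bp) and Rasd1 lower, and Plcb3 was the 1 of 4 tested phospholipase C beta genes called (7.22 against 3.56). Pcp2, a regulator of Gi and Go, is itself the driver of these lines.

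The promoters of Rgs8 (chr1:153652787-153653086, plus strand) and Gng13 (chr17:25716922-25717221, plus strand) are shown because these genes had the largest differences among the members called higher in Purkinje neurons, from RefSeq on GRCm38.p6, with the same bounds, motifs and capitals as above.
Rgs8: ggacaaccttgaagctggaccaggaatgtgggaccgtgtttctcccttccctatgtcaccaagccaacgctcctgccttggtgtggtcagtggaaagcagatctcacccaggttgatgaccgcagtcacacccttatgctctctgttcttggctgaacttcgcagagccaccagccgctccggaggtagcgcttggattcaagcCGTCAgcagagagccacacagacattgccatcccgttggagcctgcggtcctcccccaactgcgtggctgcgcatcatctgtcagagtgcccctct
Gng13: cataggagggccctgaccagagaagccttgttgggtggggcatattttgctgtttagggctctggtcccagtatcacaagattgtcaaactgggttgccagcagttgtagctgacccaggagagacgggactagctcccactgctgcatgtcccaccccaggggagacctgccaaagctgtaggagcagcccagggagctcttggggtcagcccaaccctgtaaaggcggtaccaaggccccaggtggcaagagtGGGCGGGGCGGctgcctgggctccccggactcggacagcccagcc

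Rgs8 held 1 match to TGACG, on the minus strand, and none to the other 3 motifs. Gng13 held 2 overlapping GC boxes just after the annotated start. Among the RefSeq promoters used, 3 starts were listed for Rgs8 and 2 for Gng13, of which the one farthest upstream was taken. The RefSeq gene Rgs8 begins at base 153652959, upstream of the start taken here.

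**Figure D4:**
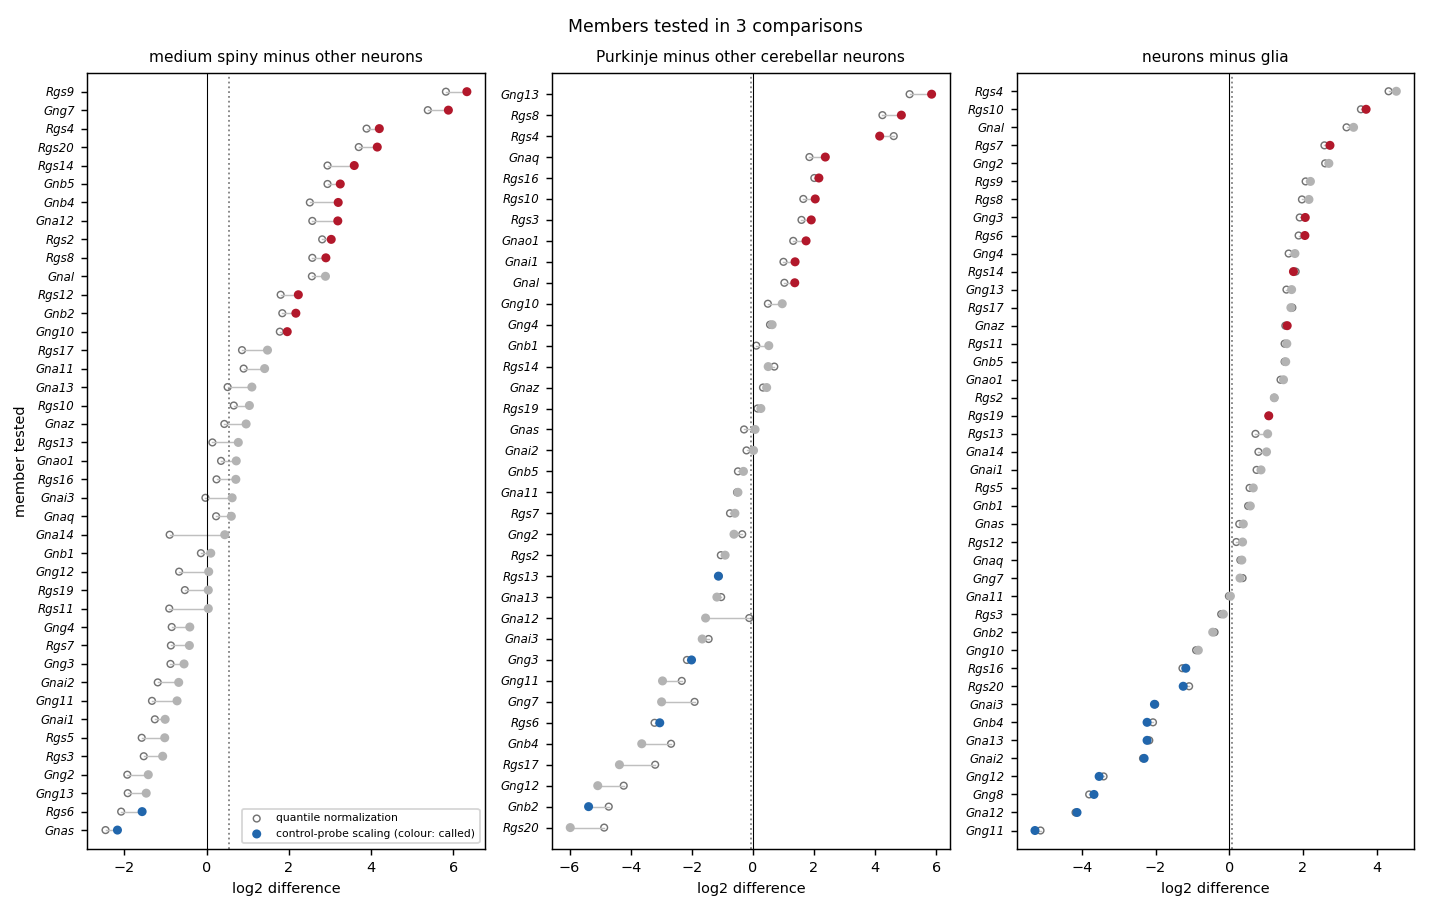
Log2 differences of the members tested in medium spiny against other neurons, Purkinje against other cerebellar neurons and neurons against glia; filled points are after control-probe scaling (red called higher, blue called lower, grey not called), open points after quantile normalization, and the dotted line is the median over all genes. Gng7 and Rgs9 lie at 5.88 and 6.33 in the first panel, Gng13 at 5.85 and Gnb2 at -5.38 in the second and Gng11 at -5.27 in the third.

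Granule neurons, compared with unipolar brush neurons, another excitatory cell of the granular layer, had 1 of 35 members called higher (Rgs16, background 7.67%) and 9 lower (background 14.9%). Gng12 was at 5.23 in granule and 11.47 ± 0.05 in unipolar brush neurons, at least 44.4-fold (limma, adjusted p = 1.6e-33). Gnb4 (4.75 against 10.86, at least 28.9-fold), Gng4 (12.4-fold), Rgs10 (11.8-fold), Rgs20 (11.6-fold), Rgs6 (at least 6.89-fold), Gnai2 (4.37-fold) and Rgs2 (3.86-fold) were lower in granule neurons too. Rgs13, a small R4 gene of immune cells, reached 6 in unipolar brush neurons alone, at 6.67, 6.67 and 6.64. Averaged over all probe sets of a gene, Rgs6 (-3.83), Rgs20 (-2.11) and Rgs16 (1.44) were not called. Beside this, the 10 astrocyte markers, all at 6 or above there, summed to 63300 to 67400 in unipolar brush arrays and to 3870 to 5380 in granule arrays, where 5 of 10 reached 6. The part of astrocyte RNA in these differences was not tested.

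Golgi neurons and stellate and basket neurons are inhibitory interneurons of the cerebellar cortex. Rgs6, Rgs10 and Gnaz were called higher in Golgi neurons (3 of 33 tested, background 3.36%) and 5 members lower (background 7.92%). Rgs6 was at 8.12 on all 3 Golgi arrays and at 2.03 in stellate and basket neurons, at least 4.35-fold (adjusted p = 5.2e-36), and Rgs10 was 4.46-fold higher. Lower in Golgi neurons were Gng11 (22.2-fold), Rgs3 (20.5-fold), Gng12 (at least 18.9-fold), Gng10 (7.29-fold) and Gnb2 (4.18-fold). Beside this, summed intensities in Golgi and in stellate and basket arrays were 3330 to 4070 and 27900 to 30500 for astrocyte markers (3 and 10 of 10 at 6 or above). They were 1260 to 2540 and 30200 to 42000 for myelin markers (2 and 9 of 9) and 111 to 123 and 13600 to 14500 for oligodendrocyte progenitor markers (1 and 6 of 7). The part of glial RNA in these differences was not tested. With the mean of a gene's probe sets Rgs3 (-2.3), Rgs6 (3.13) and Gnaz (0.42) were not called. Gnaz and Gnb2 were not called without Golgi replicate 2, nor Gnaz without stellate and basket replicate 3. The median difference over all genes was -1.28 after control scaling, and over the members -1.56. With quantile normalization alone the counts were 8 higher and 6 lower, and without scaling 3 and 10.

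All cerebellar neuron populations were also set against the 6 cortical ones. None of 39 members tested was called higher in cerebellum (background 5.82%) and 6 were called lower (background 11.3%), with median differences of -0.73 over the members and -0.29 over all genes. Quantile normalization alone called 1 higher. Rgs12 was under 6 in every cerebellar neuron population (2.53 ± 0.02) and at 8.98 ± 0.15 in cortex, at least 7.87-fold (limma, adjusted p = 4.5e-55). Gnb4 (at least 5.09-fold), Rgs14 (at least 5.07-fold), Gnb2 (3.46-fold), Rgs9 (at least 2.6-fold) and Rgs6 (at least 2.01-fold) were lower as well. Without layer 5a neurons, Rgs14 and Rgs9 were no longer called and 5 members were. Rgs14 was also lost without scaling and without Pnoc+ replicate 1, and Rgs12 (-2.35), Rgs6 (-2.07) and Rgs9 (-1.29) with the mean of a gene's probe sets. Of 8 adenylyl cyclases tested, 4 were called lower in cerebellar neurons (Adcy2, Adcy3, Adcy7 and Adcy9) and none higher.

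Within cortex, layer 5a neurons had 7 of 38 members called higher than layers 5b and 6 (background 7.91%) and none lower (background 0.503%). Gng11 stood at 10.62, 11.01 and 11.14 in layer 5a, at 7.66, 7.26 and 7.28 in layer 5b and at under 6 in layer 6, at least 18.7-fold (adjusted p = 7.9e-31). Rgs5, an R4 gene known as a pericyte marker, stood at 11.14, 12.56 and 12.28 against 8.06 to 9.18 in layer 5b and 7.61 to 8.12 in layer 6, 13.6-fold (adjusted p = 5.7e-19). Gna12 (at least 4.27-fold), Rgs16 (at least 3.81-fold), Rgs10 (3.47-fold), Gna13 (3.11-fold) and Gnai2 (2.92-fold) were higher too, but Gna12 and Rgs16 were not called with the mean of a gene's probe sets, nor Gna13 without layer 5a replicate 2. Rgs18, a gene of blood cells, reached a mean of 6 only here (7.75, 5.51 and 5.66). Markers of other cells were read beside these values. Of 11 microglia and macrophage markers 10 reached 6 in layer 5a, with summed intensities of 21900 to 51100, against 6 in layer 5b (5030 to 7420), 4 in layer 6 (1900 to 4790) and 5 in unbound cortex (1870 to 8680). Of 12 vessel and mural markers 4 reached 6 in layer 5a (2430 to 5860), 8 in layer 5b (2780 to 3740) and 2 in layer 6 (362 to 678). The mural genes Kcnj8 and Abcc9 were at 8.17 and 7.76 in layer 5a and the macrophage gene Pf4 at 11.88, all under 6 in layers 5b and 6. Vessel and mural markers as a list went the other way against layer 5b, where 8 reached 6 and 4 did in layer 5a. Astrocyte markers summed to 79800 to 96600 in layer 5a, 38800 to 44100 in 5b and 32500 to 48300 in layer 6, and myelin markers to 75700 to 94100, 22900 to 29200 and 20800 to 36400. Their part in the result was not tested.

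Layer 5b and layer 6 neurons differed less: Gng7 (3.38-fold, 10.13 ± 0.06 against 8.37 ± 0.02, adjusted p = 9.2e-08) and Rgs4 (2.33-fold, adjusted p = 0.016) were higher in layer 5b (2 of 37, background 5.82%), and Rgs16 (at least 2.6-fold) and Rgs19 (2.09-fold) lower (background 3.44%). Rgs19 was no longer called with the replicate number as a block (-1.07), and neither Rgs19 (-0.55) nor Rgs16 (-0.49) was with the mean of a gene's probe sets. Leaving out the second layer 5b array ended the calls of Rgs4, Rgs16 and Rgs19, leaving out the third layer 6 array those of Rgs4 and Rgs19, and Rgs4 also lost its call without layer 5b replicate 1 or layer 6 replicate 2. Cort+ and Pnoc+ neurons, interneuron populations, had no member of 38 called higher than the 3 layer populations (background 1.4%; limma) and 4 lower (background 15.1%): Rgs14 (at least 6.6-fold), Gnai3 (6.01-fold), Gnb5 (5.35-fold) and Gnb2 (4.12-fold). The median difference over all genes was -1.37 and over the members -1.21, control scaling alone called 25 members lower, and quantile normalization alone called 5 higher and 4 lower. Relative to the median gene, Rgs14 was 1.81 log2 units lower and Gnb2 0.67. Without layer 5a, 2 members were called higher and 3 lower, and Gnb2 was no longer called. Gnai3 was not called with the mean of its probe sets.

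Between the 17 neuronal and the 7 glial populations, 7 of 42 members tested were called higher in neurons (background 7.52%) and 10 lower (background 17%), with median differences of 0.93 over the members and 0.08 over all genes. Rgs10 (13.1-fold, 10.41 ± 0.25 against 6.7 ± 0.48, SD, n = 54 and 22), Rgs7 (6.63-fold), Gng3 (4.16-fold), Gnaz (2.97-fold), Rgs14 (at least 2.11-fold), Rgs19 (at least 2.05-fold) and Rgs6 were higher in neurons. Rgs7 and Rgs6 are R7 genes, and Rgs10 is a small R12-group protein. Higher in glia were Gng11 (at least 29.6-fold, 12.34 ± 0.27 against 7.07 ± 0.3, limma, adjusted p = 7.7e-66), Gng12 (at least 9.37-fold), Gna12 (at least 7.76-fold), Gnai2 (4.95-fold), Gna13 (4.68-fold), Gnai3 (4.08-fold), Gnb4 (at least 3.66-fold) and Rgs20 (at least 2.13-fold), with Gng8 and Rgs16. Arrays of the sides overlapped in all 17. Gnaz and Rgs19 were not called without scaling, Rgs19 was not called without layer 5a, and with the mean of a gene's probe sets Gna12 (-1.47), Rgs20 (-0.42) and Rgs16 (-0.12) were not. Gnal (at least 8.13-fold higher in neurons), Gng2 (at least 4.66-fold), Gng13 (at least 3.1-fold) and Gnao1 (2.76-fold) were not called, because their neuronal mean did not exceed unbound tissue under both scalings. No adenylyl cyclase of 8 tested was called, under the same requirement, though their median difference was 1.41 toward neurons, against 0.08 over all genes.

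Among glia, astrocytes of cortex and cerebellum were compared with mature oligodendrocytes, and 5 of 39 members were called higher (background 20%) and 5 lower (background 7.26%), with medians of 0.16 over the members and 0.17 over all genes. Rgs20 was 18.1-fold higher in astrocytes (13.1 ± 0.13 against 8.92 ± 0.3, SD, n = 7 and 6), and Gna13 7.64-fold, Rgs19 at least 5.26-fold, Rgs12 at least 2.35-fold and Rgs6 at least 1.58-fold. Rgs20 was highest of all populations in cortical astrocytes, at 13.96, 14.1, 14.14 and 13.79, next to Drd1+ medium spiny neurons at 13.93. Gng8, a gamma subunit described in olfactory and vomeronasal neurons, was at 9.67, 9.14 and 9.91 in cerebellar and 8.74, 8.74 and 9.23 in cortical mature oligodendrocytes, and at 2.1 on average in astrocytes, at least 9.43-fold lower (limma, adjusted p = 1.4e-79). It reached 6 in the 4 oligodendroglial populations and in no other TRAP population, with Bergmann glia next at 5.26, and in unbound spinal cord (7.19 to 7.61), the tissue with myelin marker sums of 125000 to 136000. Gng11 was 4.15-fold and Gng7 3.23-fold lower in astrocytes, with Rgs3 and Rgs9. Unscaled, the counts were 7 and 4. Rgs3 was then not called, nor without any 1 of cortical astrocyte replicates 2 and 3 and cortical mature oligodendrocyte replicate 1. Rgs19 was lost without cortical astrocyte replicate 3, Rgs9 without cortical mature oligodendrocyte replicate 1 or 2, and Rgs12 (0.97) and Rgs9 (-1.14) with the mean of a gene's probe sets.

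Mixed oligodendroglia, whose driver olig2 also marks progenitors, had 5 of 38 members called higher than mature oligodendrocytes (background 14.6%) and 3 lower (background 3.53%), with medians of 0.24 over the members and 0.45 over all genes. Gng4 (9.95-fold), Rgs19 (at least 8-fold), Gng3 (7.09-fold, 12.35 ± 0.59 against 9.53 ± 0.16), Gnb4 (5.57-fold) and Gng12 (3.53-fold) were higher, and Gng11 (3.23-fold), Gng8 (2.7-fold) and Rgs9 lower. Rgs9 lost its call without cortical mature oligodendrocyte replicate 1 or 2 and with the mean of its probe sets. Beside these calls, the 7 oligodendrocyte progenitor markers summed to 61300 to 84000 in mixed and 27100 to 39300 in mature populations, and the 10 neuron markers to 9790 to 32600 and 28200 to 59400, ranges that overlap. Their part in the result was not tested. With control scaling alone 9 were higher and 3 lower, and unscaled 11 and 3. Between Bergmann glia and cerebellar astrocytes, Rgs16 alone of 32 members was called, 2.72-fold lower in Bergmann glia (7.5 ± 0.22 against 8.95 ± 0.07, adjusted p = 0.0064), with none higher (background 1.92% higher and 2.55% lower). With the mean of the Rgs16 probe sets the difference was -0.51 and no member was called. Control scaling alone called 2 higher and 1 lower, and unscaled values 5 and 1.

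Each population was also set against unbound RNA of its tissue; populations of 1 tissue share those control arrays. Of 877 gene and population tests of members, 120 (13.7%) were called higher in TRAP RNA and 241 (27.5%) lower, where over all genes 14.4% were higher and 20% lower. The median difference of all genes ranged from -1.84 (Golgi neurons) to 1.25 (layer 5a neurons). Layer 6 neurons had no member of 37 called higher (1337 of 9441 genes) and cerebellar mixed oligodendroglia had 12 of 35 (1845 of 10005 genes). Layer 5a neurons had none of 38 called lower, where few genes were (233 of 9684), and cortical astrocytes had 20 of 38 (2950 of 10031 genes). Rgs8 (15 populations lower), Rgs5 (14), Rgs17 (13), Gng11 (13) and Gnaq (12) were most often lower, and Gng11 and Gnai2 (8 each), Rgs12, Rgs16 and Gna12 (7 each) most often higher. For Gng11 the populations called higher were the 7 glial ones and layer 5a neurons, for example 22.1-fold in cortical mature oligodendrocytes (13.18 ± 0.13 against 8.71 ± 0.21, SD, n = 3 and 9, limma, adjusted p = 2.1e-30). Rgs10 was called higher in Purkinje (7.72-fold), unipolar brush (5.5-fold), Golgi (4.67-fold), Pnoc+ (4.18-fold), basal forebrain (4.15-fold) and striatal cholinergic neurons (3.99-fold). Rgs9 was higher only in layer 5a neurons (5.07-fold), and in medium spiny neurons it lay 0.72 above unbound striatum on average, which itself held 11.35.

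**Figure D5:**
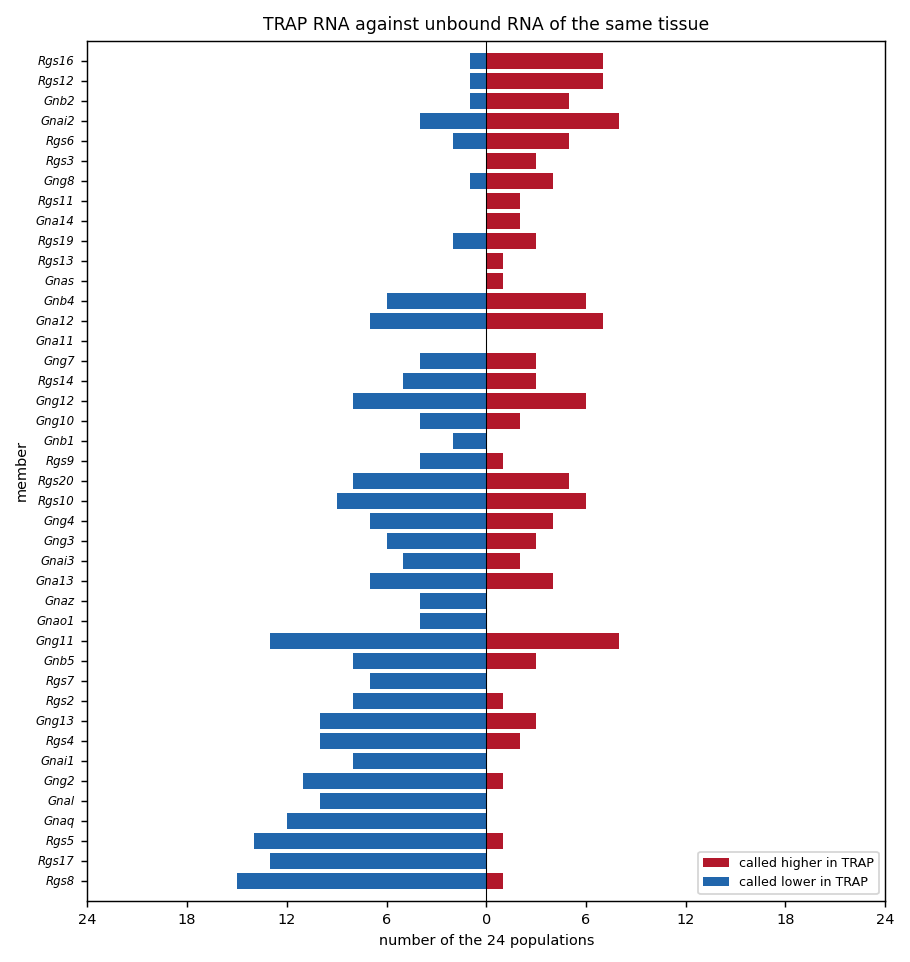
Number of TRAP populations (of 24) in which each member was called higher or lower than in unbound RNA of its tissue. Rgs8 was lower in 15 and higher in 1, Gng11 lower in 13 and higher in 8, and Gna11 was called in none.

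Unbound RNA gave the regional pattern of the same genes in whole tissue. In striatum, 10 of 41 members were called higher than in the other 5 tissues (background 6.99%) and 5 lower (background 12.8%), with medians of 0.12 over the members and -0.2 over all genes. Rgs9 was at least 19.7-fold higher (11.35 ± 0.21 against 6.61 ± 0.42, SD, n = 6 and 25, limma, adjusted p = 1.9e-53) with no overlap of arrays. Gng7 (11.3-fold), Rgs4 (4.87-fold), Rgs14 (at least 4.48-fold), Gnal (3.94-fold), Rgs20 (3.93-fold), Rgs2 (2.79-fold), Gnb2 (2.58-fold), Gnb5 (2.19-fold) and Rgs8 (2.08-fold) followed, and Gng2 (3.8-fold), Gnas (2.54-fold), Gng12 (2.29-fold), Gnai3 (2.18-fold) and Gng8 were lower. After averaging a gene's probe sets, the Gnai3 difference turned to 0.03, and Rgs9 (2.3), Gnas (-0.87) and Gng12 (-0.95) were not called. Gnai3 was also not called without any 1 of basal forebrain replicates 1 and 2, brainstem replicate 1 and spinal cord replicate 3. In cerebellum 3 of 41 were higher (background 16.6%), Rgs8 (14.7-fold, 13.8 ± 0.39 against 9.92 ± 0.38), Gng13 (7.52-fold) and Rgs3 (3.53-fold), and 11 lower (background 11%), led by Rgs4 (31.5-fold) and Gng4 (13.6-fold); the medians were 0.06 and 0.48. In brainstem and cord against the 3 forebrain tissues, 7 were higher (background 15.8%) and 12 lower (background 9.09%), with medians of -0.19 over the members and 0.22 over all genes. Gna12 (5.36-fold), Gng11 (2.91-fold), Gng12 (2.56-fold), Gnas (2.42-fold), Rgs11 (at least 1.88-fold) and Gng8 (at least 1.47-fold) were among the higher, and Rgs9 (at least 11.5-fold), Rgs14 (at least 8.16-fold), Gng7 (7.92-fold) and Rgs20 (5.84-fold) among the lower. Averaged over all probe sets of a gene, Gna12 (1.59), Gnas (1.56) and Rgs9 (-1.49) were not called here, nor Rgs3 (1) in cerebellum. Myelin markers summed to 112000 to 136000 in brainstem and cord and to 24700 to 121000 in the forebrain tissues, beside the higher Gng11 and Gng8. Their part was not tested.

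Across the 24 population means some members had like profiles, given as a description over populations that share scaling and, in part, tissue. Gna14 and Rgs11 had the highest correlation (Pearson r = 0.89, 0.86 after quantile normalization). Both reached the minimum level for testing in 2 of the 24 populations only, brainstem motor and spinal cholinergic neurons. Their medians over the populations were 2.08 and 2.31, so this r rests largely on those 2 populations and on dim values elsewhere. Next came Gna13 with Gnai3 (0.87), Gna12 with Gng12 (0.85), Gnb5 with Rgs14 (0.85) and Gnb2 with Rgs20 (0.84). Rgs9 was most like Gng7 (0.82, 0.75 after quantile normalization), Gng13 most like Rgs8 (0.55) and Gnas most like Gng3 (0.4). Where a gene had several probe sets, some disagreed with the one used, for example 1 each of Gnao1 (r = -0.26 over the 30 groups), Gng4 (-0.12), Rgs3 (0.17), Gnb1 (0.32), Rgs5 (0.4) and Gna13 (0.44). Their highest group means were 8.42, 6.97, 7.75, 10.95, 6.36 and 11.36 in that order. Another probe set followed the one used for Gng4 (0.96), Rgs3 (0.89), Rgs5 (0.89) and Gna13 (0.98).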

How the data were processed

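RNA was amplified over 2 cycles per the labels' protocols and hybridized to Affymetrix arrays with 45101 probe sets. The deposited values are linear intensity, computed by the authors with GCRMA (version not given), per the submitters' processing notes, and normalized within each group only, per the series' design text. Genes were named from the platform annotation, in which 34945 probe sets carry 1 symbol, 932 several and 9224 none. The members and gene lists were chosen with earlier results of these data known.

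Values under 1 would have been set to 1 before log2, and the lowest intensity was 4.34. Each group was then shifted by 1 constant to level its 18 biotinylated controls with those of the other groups, as the series' text recommends. Quantile normalization over all arrays was the second scaling. limma 3.58.1 in R 4.3.3 was fitted to all arrays at once, with a mean-variance trend and Benjamini-Hochberg adjustment over all genes tested. The fit was tested on simulated data. Figures were drawn with matplotlib 3.10.9. Arrays give no count of molecules, and their number limits the precision.

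Up to 8 called members in each direction with the largest differences were to be given with values in each of the 18 comparisons, with the highest and lowest populations of members, and non-members were named only from the marker, pathway and driver lists. Alternatives were each scaling alone, no scaling, other minimum levels, the mean of a gene's probe sets, no variance trend and each comparison's own arrays. Others were no requirement over unbound RNA, unbound arrays of the same line, a replicate block and each array of the groups of 3 or 4 arrays left out. Layer 5a neurons left out was an alternative chosen after seeing the data.

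Replicate numbers in the labels are shared by TRAP and unbound arrays of some lines. Deviations of same-numbered arrays of the chat line correlated above 0.1 in all 3 basal forebrain pairs (0.45, 0.31 and 0.49). The 3 brainstem pairs did so too (0.61, 0.58 and 0.48). The highest correlations with another number were 0.31, 0.28 and -0.4 in basal forebrain and -0.55, 0.48 and 0.44 in brainstem. No other combination of line and tissue with 3 pairs had this, and both of the 2 chat striatum pairs stood at 0.11. The main fit did not pair arrays, and the replicate block was an alternative.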

Additional observations from a re-analysis of the deposited data

Results flagged for a closer look

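In groups of 4 to 10 arrays, 18 of 164 member and group pairs had 1 array far from the rest by Dixon's critical value, where chance gives about 1 in 20. In unbound striatum replicate 4 was the lowest for 6 members: Gnai1 (12.31, nearest array 13.2), Gnal (12.12, nearest 12.73), Gnaq (11.58, nearest 12.29), Gnb2 (12.31, nearest 12.81), Gng4 (10.79, nearest 12.02) and Rgs7 (10.12, nearest 10.77).

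In unbound cerebellum, replicate 1 was highest for Gnai1 (15.02, nearest 14.7), Gnao1 (12.53, nearest 11.67) and Gng7 (7.31, nearest 7.06). Replicate 5 was lowest for Gnb4 (8.87, nearest 9.38) and replicate 4 for Rgs7 (11.25, nearest 11.64). In unbound cortex, replicate 7 was lowest for Gna12 (5.28, nearest 6.07), replicate 9 highest for Gng11 (9.17, nearest 8.83) and replicate 4 lowest for Rgs9 (5.57, nearest 6.89).

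Among TRAP groups, cortical astrocytes held Gnas low in replicate 2 (13.4, nearest 14.07), Gnb2 high in replicate 4 (13.58, nearest 12.35) and Gng3 high in replicate 3 (9.97, nearest 9.1). Purkinje replicate 6 was the highest for Gnb2 (6.68, nearest 6.26).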

How the results depend on the processing

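Counts are of members called. With control-probe scaling alone, Cort+ and Pnoc+ against layer neurons gave 25, layer 5a against layers 5b and 6 gave 13 and Bergmann glia against cerebellar astrocytes 3. With quantile normalization alone, Cort+ and Pnoc+ gave 9 and Golgi against stellate and basket neurons 14. Without scaling, Cort+ and Pnoc+ gave 16, granule against unipolar brush neurons 17, Golgi 13, Bergmann glia 6 and mixed against mature oligodendroglia 14. Without a minimum level Bergmann glia gave 2. With the mean of a gene's probe sets, medium spiny neurons gave 9, Drd1+ against Drd2+ 1, striatal cholinergic neurons 13, Purkinje neurons 8 and Bergmann glia 0 (limma). Without the requirement over unbound RNA, neurons against glia gave 29, hindbrain and cord cholinergic neurons 22, cerebellar against cortical neurons 17, Purkinje 22, granule 17, Golgi 16, astrocytes against oligodendrocytes 18, Bergmann glia 3 and mixed oligodendroglia 14. The cause of these moves was not tested beyond what each setting drops. Under the mean of probe sets 2 differences reversed, Gnas in medium spiny neurons to 0.13, where the other probe sets were dim, and Gnai3 in unbound striatum to 0.03.

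With a replicate block, TRAP against unbound RNA in 8 populations gave 104 calls against 125 (98 shared), with 0 against 6 in Drd1+ and 0 against 11 in Drd2+ neurons, where only 2 pairs were present. Between populations, the replicate block took Rgs12 (Drd1+ against Drd2+) and Rgs19 (layer 5b against layer 6) out of the calls and changed no other of the 190 member differences. Calls against unbound RNA of the same line numbered 362 against 361 (350 shared). A population kept its main calls here if it had fewer than 2 unbound arrays of its own line or its tissue had no others. Only cortical astrocytes, Purkinje neurons, Bergmann glia, striatal cholinergic neurons and both medium spiny populations could change, so the agreement elsewhere was fixed in advance.

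Arrays were left out in turn from groups of 3 or 4 arrays only. No Purkinje array and no unbound cortical, cerebellar or striatal array was therefore dropped. Neurons against glia gave 17, medium spiny neurons 15 to 16, Drd1+ against Drd2+ 3 to 5 and striatal cholinergic neurons 21 to 22. Hindbrain and cord gave 11 to 12, Cort+ and Pnoc+ 4 to 5, layer 5a 6 to 8 and layer 5b against layer 6 1 to 6. Cerebellar against cortical neurons gave 5 to 7, Purkinje 13 to 14, granule 10 and Golgi 6 to 9. Astrocytes gave 8 to 11, Bergmann glia 1 and mixed oligodendroglia 7 to 9. Unbound striatum gave 14 to 15, cerebellum 14 and brainstem and cord 19 to 21, and the pooled tests against unbound RNA 359 to 363. Of 190 member differences, 170 kept their call without scaling and at a minimum level of 8, and 127 with the mean of probe sets. Averaging leaves the values of a gene with 1 probe set unchanged. It therefore did not test Gnb2, Gng3, Gng7, Gng8, Gng10, Gng11, Rgs7, Rgs8, Rgs10, Rgs11, Rgs13 and Rgs14, whose differences are among the 127. Without layer 5a, neurons against glia gave 16, with Rgs19 lost. Normalization within groups and equal triplicate values limit all p-values, and dim probe sets give bounds only.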

Other observations

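Gng5, a widely expressed gamma subunit, was outside the gene set because its 3 probe sets also carry the symbol of its pseudogene. One of them ranged from 5.49 to 14.88 over the 24 populations and another from 6.37 to 15.56, both highest in Bergmann glia, and the remaining one stayed between 1.55 and 3.53. Transcripts of the gene and the pseudogene cannot be told apart by these probe sets.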
